A study of Homo sapiens with 5 samples.

Results

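UCA1 and 6 other long non-coding RNAs (KCNQ1OT1, LINC00342, MALAT1, NEAT1, GAS5 and SNHG1) were followed through 5 RNA sequencing libraries of MDA-MB-231, a line from a human breast cancer without hormone receptors. The members were taken by symbol from the deposited count table, where they are 7 of 25382 genes, and all 7 passed the filter on low counts. They were selected on their measured differences between weakly and strongly adherent libraries, so those values are given as a description and carry no test, while the comparison of dates did not enter that choice. Cells grown in DMEM with FBS were separated by shear stress into weakly adherent cells, with libraries titled 6, 12 and 15 March, and strongly adherent cells, with libraries titled 6 and 15 March. All 5 libraries come from the same parental line without any genetic change or added agent in the labels, and what the dates mark (a separation, an extraction or a sequencing run) is not given in the sources used here. Nothing says that libraries of a group came from separate cultures, so their spread may be technical.

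A long non-coding RNA is a transcript with little or no protein product that acts as RNA, or whose act of transcription or splicing is what matters. UCA1 is a mainly cytoplasmic RNA found in bladder and other carcinomas, and KCNQ1OT1 is transcribed from the paternal allele of an imprinted domain, where it silences neighbouring genes in cis. MALAT1 and NEAT1 are abundant nuclear RNAs transcribed next to each other: MALAT1 gathers in nuclear speckles, which hold splicing factors, and the long form of NEAT1 is the scaffold of paraspeckles. GAS5 and SNHG1 carry small nucleolar RNAs in their introns, and their spliced transcripts are translated briefly and degraded by nonsense-mediated decay. LINC00342 is an intergenic transcript to which no settled role is assigned here.

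The 3' ends of MALAT1 and of the long form of NEAT1 are not made by ordinary polyadenylation, while the short form of NEAT1 has a poly(A) tail. RNase P cuts below a genomically encoded A-rich tract that folds back on U-rich stretches as a triple helix, and this end is how these RNAs can stay stable without a poly(A) tail. Whether the libraries were made by poly(A) selection is not given in the sources used here, and its part in the measured levels of both RNAs was not tested. The tract and a U-rich run before it are shown because the pair shares them. No long non-coding transcript annotated to the other members held the run with the tract within 150 bases of its start. The windows are 120 bases of GENCODE release 29 transcripts on GRCh38, plus strand, and end at the last base of the tract, chr11:65505997-65506116 for MALAT1-202 and chr11:65445421-65445540 for NEAT1-202. Capitals mark the 16-letter run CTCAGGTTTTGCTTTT and the 11-letter tract AAAAAGCAAAA, both searched on the transcribed strand.
MALAT1-202: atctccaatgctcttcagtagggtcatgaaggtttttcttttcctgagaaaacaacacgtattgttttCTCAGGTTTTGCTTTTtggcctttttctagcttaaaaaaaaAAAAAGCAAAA
NEAT1-202: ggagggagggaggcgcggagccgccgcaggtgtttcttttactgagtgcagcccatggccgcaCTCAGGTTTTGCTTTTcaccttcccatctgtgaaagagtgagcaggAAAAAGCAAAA
The tract was taken as the last 11 letters of NEAT1-202, and the run as the longest stretch that the 2 windows share outside the tract. Both transcripts thus hold the run and the tract by construction. Of 29566 long non-coding transcripts in that annotation, 90 (0.304%) held the tract, and 2, these transcripts, held the run with the tract within 150 bases of its start. These counts are a description and test nothing. In NEAT1-202 the tract closes the transcript at base 22743, whereas in MALAT1-202 it ends at base 8355 of 8708.

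The libraries held 19630386 to 21707459 reads assigned to genes, and 13297 genes were tested. Of the markers of the line, VIM (vimentin) was at 2458 to 2746 CPM (counts per 1000000 assigned reads, TMM scaled) and CD44 at 1471 to 1696 CPM. No library had a read of the hormone receptors ESR1 and PGR, while the HER2 gene ERBB2 was present at 82.8 to 93.9 CPM and the epithelial gene EPCAM at 19.4 to 25.8 CPM. The leukocyte gene PTPRC had 1 to 5 reads a library and the endothelial gene PECAM1 15 to 33. In bulk RNA, fewer cells with a transcript and less of it per cell cannot be told apart.

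Read by library, the 7 RNAs are described in 3 sets, which share some traits. UCA1 was lower and KCNQ1OT1 and LINC00342 were higher in weakly adherent cells at both shared dates. MALAT1 and NEAT1 were higher on 15 than on 6 March in both groups. Between the groups, single pairs of libraries gave a log2 ratio of 0.45 for MALAT1 on 15 March and of -0.16 for NEAT1 on 6 March. For GAS5 and SNHG1 the counting intervals between the groups lay above 0 in the 6 March pair and included 0 in the 15 March pair. Counting intervals leave out the spread between libraries, and MALAT1, NEAT1, GAS5 and SNHG1 were not called by adhesion in the fit that follows. In the edgeR quasi-likelihood fit over all genes, with a Benjamini-Hochberg adjusted p under 0.05 as the threshold for a call, 3 of the 7 were called between weakly and strongly adherent cells, 2 higher and 1 lower, against 2.68% of all genes tested, 1.77% higher and 0.918% lower. The groups had separate ranges in 4 of the 7, against 30.0% of all genes tested. Since these values guided the choice of members, nothing is read from either count.

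**Figure D1:**
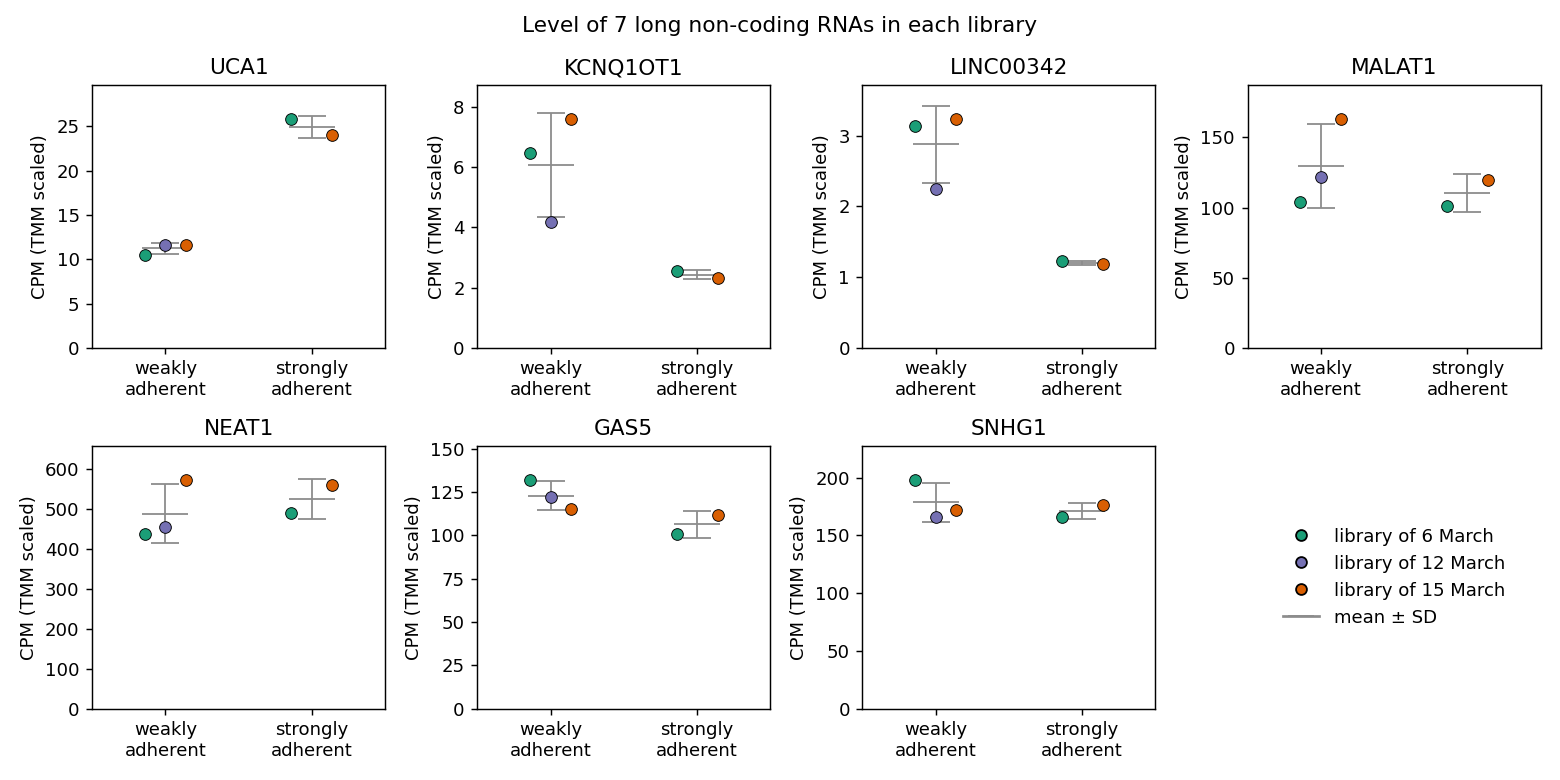
Level of each of the 7 long non-coding RNAs in TMM-scaled CPM (each vertical axis starts at 0), with weakly adherent libraries left and strongly adherent libraries right. Points are libraries coloured by date and grey bars are mean ± SD (n = 3 weakly adherent, n = 2 strongly adherent). UCA1 lies at 10.5 to 11.6 CPM in weakly adherent cells, below the strongly adherent libraries at 24.0 and 25.8 CPM. The MALAT1 and NEAT1 points rise with the date within each group.

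UCA1 was lower in weakly adherent cells. It had 220, 228 and 256 reads in weakly adherent cells of 6, 12 and 15 March, against 548 and 527 reads in strongly adherent cells of 6 and 15 March. In CPM these were 10.5, 11.6 and 11.6 in weakly adherent cells, against 25.8 and 24.0 in strongly adherent cells. Every weakly adherent library was thus below every strongly adherent one, and libraries within a group lay close together. The mean was 11.2 ± 0.687 CPM (SD, n = 3) in weakly adherent cells and 24.9 ± 1.30 CPM (SD, n = 2) in strongly adherent cells, 2.21-fold lower in weakly adherent cells (log2 fold change -1.14, SE 0.11).

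Within the dates, the log2 ratio of UCA1 was -1.30 on 6 March, with an exact 95% interval of -1.54 to -1.07, and -1.04 on 15 March, with an interval of -1.26 to -0.82. These intervals, given for single pairs of libraries, cover counting error only, and so do all intervals below. The 2 intervals overlap, and whether the size of the difference changed between the 2 dates was not tested. Between the dates, in the 4 libraries of 15 and 6 March with adhesion as a covariate, UCA1 showed a log2 fold change of -0.0044 with an SE of 0.11 (edgeR adjusted p = 0.99).

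UCA1 lies on chromosome 19 among olfactory receptor and cytochrome P450 genes. The 3 protein-coding genes before it in the RefSeq order (OR10H3, OR10H5 and OR10H1) had 1 read in all 5 libraries together. Those after it were as quiet: CYP4F2 and OR10H4 had no read, and CYP4F11, a fatty acid hydroxylase, had 0 to 5 reads a library. Of 23 genes listed around UCA1, 9 were tested in the adhesion comparison, and edgeR called 0 higher and 0 lower, with 0 also at an unadjusted p under 0.05 and by DESeq2 and limma-voom. Their median log2 fold change was -0.0033, against -0.00054 for all genes tested. In GENCODE release 29, 8.37% of the 50-base windows of UCA1 transcripts also occur in transcripts of other genes, mainly those of the overlapping antisense gene LINC01764, which has no row in the count table.

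Factors linked to UCA1 expression or action were also read out, from a list of 15 genes that included YAP1 and the TEAD family. Of 14 tested, edgeR called 0 in the adhesion comparison, where 1 was higher and 2 were lower at an unadjusted p under 0.05 and DESeq2 and limma-voom also called 0. The median log2 fold change was -0.02. TEAD4, a DNA-binding partner of YAP, averaged 22.2 ± 1.12 CPM in weakly adherent cells and 27.1 ± 1.55 CPM in strongly adherent cells (log2 fold change -0.29, edgeR adjusted p = 0.17). Its paralogue TEAD1 went the other way without passing the threshold (log2 fold change 0.21, edgeR adjusted p = 0.18). YAP1 itself was at 237 ± 30.3 CPM in weakly adherent cells (n = 3) and 243 ± 38.4 CPM in strongly adherent cells (n = 2). By date, 1 of the 14 was called higher and 1 lower (14.3%, against 9.29% of all genes), at a median of 0.06. DESeq2 called 1 higher and 0 lower. The higher gene in edgeR was YAP1 (15 minus 6 March, log2 fold change 0.31, SE 0.07, edgeR adjusted p = 0.00021).

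KCNQ1OT1 and LINC00342 were higher in weakly adherent cells, at counts low enough to limit every statement about them. KCNQ1OT1 had 136, 82 and 167 reads in weakly adherent cells of 6, 12 and 15 March, against 54 and 51 reads in strongly adherent cells of 6 and 15 March. The corresponding levels were 6.46, 4.19 and 7.59 CPM in weakly adherent cells, against 2.54 and 2.32 CPM in strongly adherent cells. The groups did not overlap, but the weakly adherent library of 12 March stood well below its 2 fellows. The mean was 6.08 ± 1.73 CPM (SD, n = 3) in weakly adherent cells and 2.43 ± 0.158 CPM (SD, n = 2) in strongly adherent cells, 2.51-fold higher (log2 fold change 1.33, SE 0.25).

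Its log2 ratio of weakly to strongly adherent cells was 1.35 on 6 March (interval 0.88 to 1.83) and 1.71 on 15 March (interval 1.25 to 2.19). Among weakly adherent libraries, that of 12 March was lower than that of 6 March by a log2 ratio of -0.63, with an interval of -1.04 to -0.22 that excludes 0. Between the dates KCNQ1OT1 gave a log2 fold change of 0.11 with an SE of 0.19 (edgeR adjusted p = 0.79).

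The call of KCNQ1OT1 ended in 4 of 15 alternatives. Its annotated transcript has 91667 bases, and once the length trend of the libraries was removed the log2 fold change was 0.04, or 0.16 with the date as a block as well. The trend was fitted on the genes with a known length, KCNQ1OT1 among them, and how well it holds at such a length was not tested. Leaving out strongly adherent cells of 6 March (log2 fold change 1.39) or of 15 March (1.27) also took the call away. The share of uniquely aligned reads outside annotated genes moved the same way: 9.02%, 8.97% and 9.84% in weakly adherent cells of 6, 12 and 15 March, against 7.96% and 8.89% in strongly adherent cells of 6 and 15 March. Its part in the KCNQ1OT1 reads was not tested.

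KCNQ1OT1 is transcribed antisense to the potassium channel gene KCNQ1, whose own row held 0, 0 and 2 reads in weakly adherent cells and 2 and 0 reads in strongly adherent cells. Of 14 genes listed for the imprinted domain, 8 were tested in the adhesion comparison and edgeR called 0, with 0 at an unadjusted p under 0.05 and by DESeq2 and limma-voom, and their median log2 fold change was -0.02. CDKN1C, a cyclin-dependent kinase inhibitor that the domain silences on the paternal allele, averaged 5.04 ± 1.93 CPM in weakly adherent cells and 4.66 ± 0.735 CPM in strongly adherent cells (log2 fold change 0.12, edgeR adjusted p = 0.93). PHLDA2, another gene silenced in this way, averaged 76.4 ± 8.26 CPM in weakly adherent cells and 84.1 ± 7.83 CPM in strongly adherent cells. By date, 2 of the 8 tested genes were called, both higher (25%, against 9.29% of all genes). The median was 0.08, with 4 genes above 0 and 4 below. Those called were CDKN1C, with a log2 fold change of 0.50 (edgeR adjusted p = 0.042), and PHLDA2, with 0.21 (edgeR adjusted p = 0.038). DESeq2 did not make these calls.

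LINC00342 had 66, 44 and 71 reads in weakly adherent cells of 6, 12 and 15 March, against 26 reads in each strongly adherent library. In CPM it was at 3.14, 2.25 and 3.23 in weakly adherent cells, against 1.22 and 1.18 in strongly adherent cells. The groups did not overlap, and the library of 12 March was again the lowest of the weakly adherent ones. The mean of 2.87 ± 0.541 CPM (SD, n = 3) in weakly adherent cells was 2.39-fold above that of 1.20 ± 0.0298 CPM (SD, n = 2) in strongly adherent cells (log2 fold change 1.26, SE 0.26). On 6 March the log2 ratio was 1.36 (interval 0.68 to 2.07) and on 15 March 1.45 (interval 0.78 to 2.16).

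At 26 reads a library, LINC00342 was called only as long as both strongly adherent libraries and the weakly adherent library of 15 March were kept. With that weakly adherent library left out the log2 fold change was 1.17, and with strongly adherent cells of 6 or 15 March left out it was 1.28 or 1.23, each time with no call. Between the dates its log2 fold change was 0.0053 with an SE of 0.25 (edgeR adjusted p = 1). Of the 50-base windows of its transcripts, 28.5% also occur in other annotated genes, so that reads of near-identical copies could have been discarded as not unique or assigned to another locus.

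**Figure D2:**
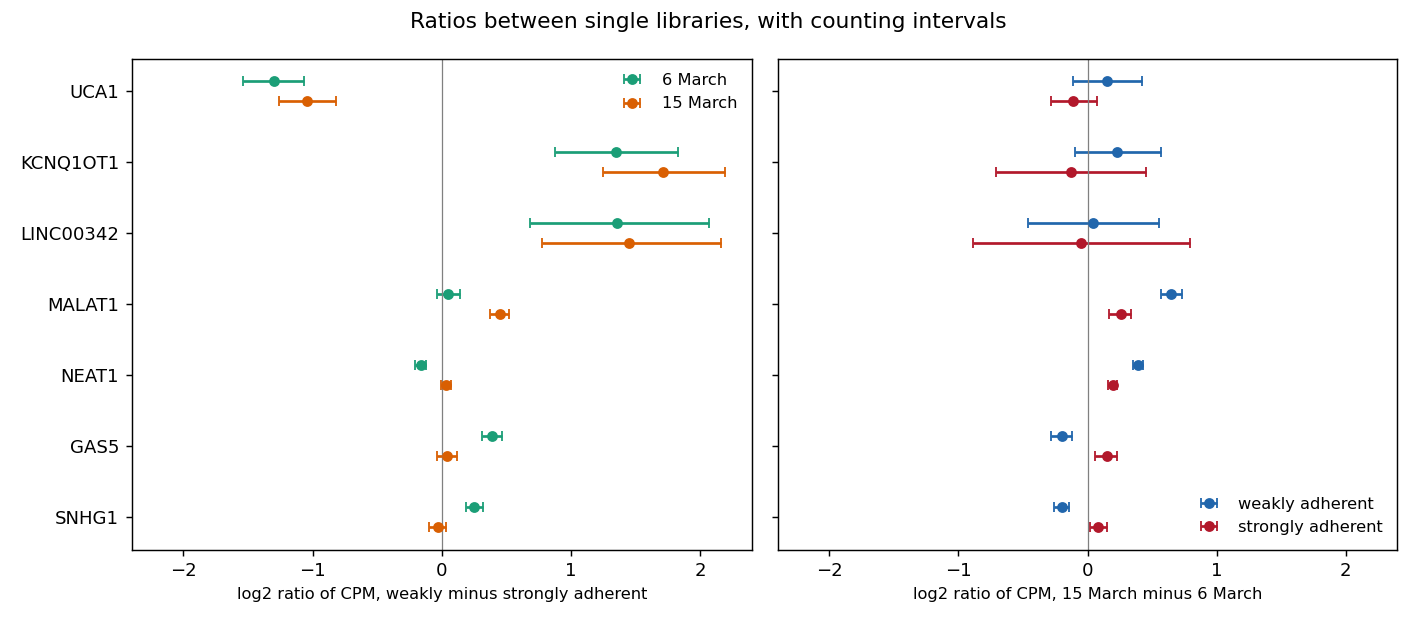
Log2 ratio of CPM between single libraries for the 7 long non-coding RNAs. Left, weakly minus strongly adherent in the 6 March and in the 15 March pair; right, 15 minus 6 March in weakly adherent and in strongly adherent cells; bars are exact 95% intervals that cover counting error only. UCA1, KCNQ1OT1 and LINC00342 leave 0 in both pairs on the left, MALAT1 and NEAT1 lie above 0 in both groups on the right, and the GAS5 and SNHG1 intervals lie above 0 on the left for 6 March only.

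MALAT1 and NEAT1, the nuclear body RNAs, were called in the date fit and not in the adhesion fit. The date fit held adhesion as a covariate, while the adhesion fit left the date out. MALAT1 had 104, 122 and 163 CPM (2191, 2391 and 3594 reads) in weakly adherent cells of 6, 12 and 15 March, against 101 and 120.0 CPM (2136 and 2640 reads) in strongly adherent cells of 6 and 15 March. The groups overlapped, and the weakly adherent library of 15 March was the highest. Mean levels were 129.9 ± 30.4 CPM (SD, n = 3) in weakly adherent cells and 110.3 ± 13.8 CPM (SD, n = 2) in strongly adherent cells, with a log2 fold change of 0.24 (SE 0.18) and no call. With the date as a block the log2 fold change was 0.25 and MALAT1 passed the threshold, and it did not with the length trend removed as well (0.16).

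Between the dates MALAT1 rose, with a log2 fold change of 0.45 for 15 minus 6 March (SE 0.07, 1.37-fold, edgeR adjusted p = 1.9e-08), a comparison in which 9.29% of 13249 genes were called, 6.74% higher and 2.55% lower. The rise was present in both groups, with a log2 ratio of 0.65 (interval 0.57 to 0.73) in weakly adherent cells and 0.26 (interval 0.17 to 0.34) in strongly adherent cells. These counting intervals do not overlap, a difference that was not tested across libraries, and the same 4 libraries gave a weakly to strongly adherent log2 ratio of 0.45 (interval 0.37 to 0.52) on 15 March and of 0.05 (interval -0.04 to 0.14) on 6 March. The library of 12 March lay between those of the other dates.

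NEAT1 had 436, 454 and 572 CPM (9173, 8885 and 12573 reads) in weakly adherent cells of 6, 12 and 15 March, against 489 and 559.6 CPM (10378 and 12312 reads) in strongly adherent cells of 6 and 15 March. In both groups the library of 15 March was the highest, and the groups overlapped. The mean was 487 ± 73.7 CPM (SD, n = 3) in weakly adherent cells and 524 ± 50.3 CPM (SD, n = 2) in strongly adherent cells, a log2 fold change of -0.11 (SE 0.12) without a call. Within dates the log2 ratio of weakly to strongly adherent cells was -0.16 on 6 March (interval -0.21 to -0.12) and 0.03 on 15 March (interval -0.0056 to 0.07).

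Between the dates NEAT1 rose by a log2 fold change of 0.29 (SE 0.07, 1.22-fold, edgeR adjusted p = 0.00066), with a log2 ratio of 0.39 (interval 0.35 to 0.43) in weakly adherent cells and of 0.20 (interval 0.16 to 0.23) in strongly adherent cells. MALAT1 and NEAT1 were thus 2 of 7 members called by date, both upward, against 9.29% of all genes called and 6.74% called higher. Both were also called by DESeq2 (adjusted p = 0.0067 and 0.026). The date fit has 1 residual degree of freedom, and both calls ended when adhesion was left out as a covariate (edgeR adjusted p = 0.46 for MALAT1 and 0.33 for NEAT1). The share of reads outside genes was also higher on 15 March in both groups, at 9.84% against 9.02% in weakly adherent cells and 8.89% against 7.96% in strongly adherent cells, and its part in these rises was not tested.

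NEAT1 has several annotated forms, of which the longest has 22743 bases, and the table does not tell them apart. With the length trend removed on the basis of that form, the date difference was 0.15 (edgeR adjusted p = 0.15) and the call ended. The same step moved the adhesion value to -0.58, or -0.56 with the date as a block, and NEAT1 then passed the threshold as lower in weakly adherent cells. The step was not run with a shorter form of NEAT1. For MALAT1, of 8708 bases, the date call held with the length trend removed (log2 fold change 0.37, edgeR adjusted p = 1.2e-05).

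**Figure D3:**
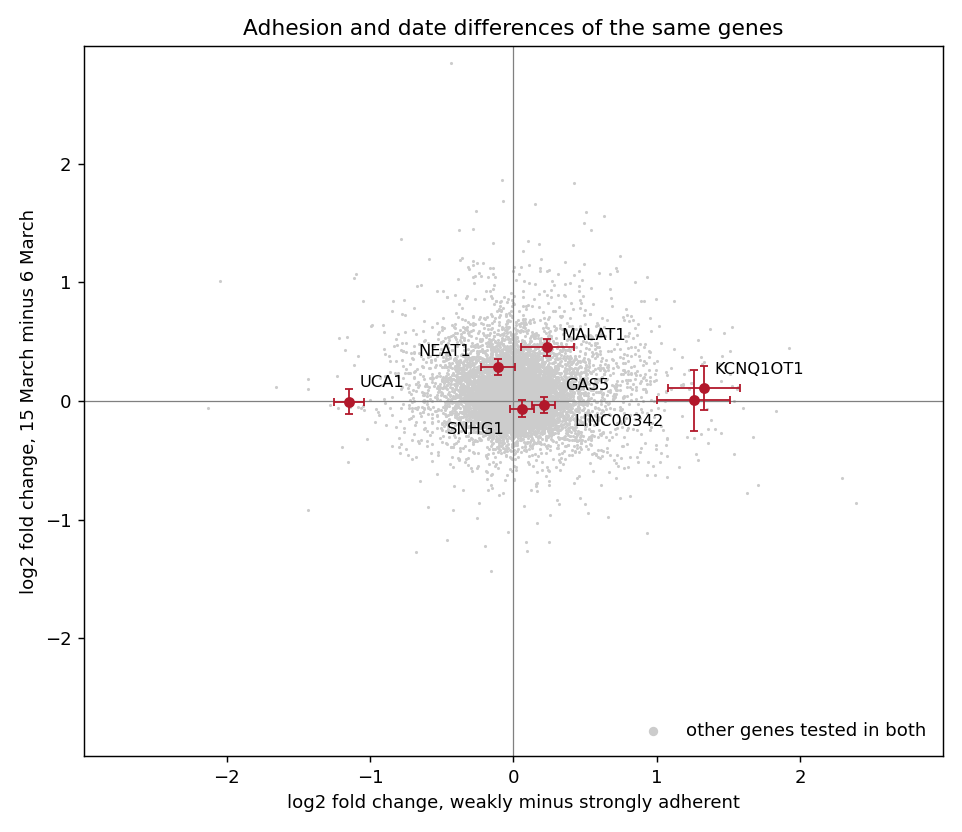
Log2 fold change for weakly minus strongly adherent cells (horizontal) and for 15 minus 6 March (vertical) of all genes tested in both comparisons (grey) and of the 7 long non-coding RNAs (red, bars are standard errors). UCA1 at -1.14, LINC00342 at 1.26 and KCNQ1OT1 at 1.33 spread along the horizontal axis and stay near 0 on the vertical one, while MALAT1 at 0.45 and NEAT1 at 0.29 lie above 0 on the vertical axis; 4 of the libraries enter both axes.

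Genes around the pair and proteins of their nuclear bodies were read out next. FRMD8, a gene beside NEAT1 on chromosome 11, had an adhesion log2 fold change of -0.19 (edgeR adjusted p = 0.55). Of 17 genes listed in the region, 16 were tested in the adhesion comparison, 0 rose and 2 fell: POLA2, a subunit of DNA polymerase alpha (37.3 ± 0.711 CPM in weakly adherent cells against 49.1 ± 0.300 CPM in strongly adherent cells, log2 fold change -0.40, edgeR adjusted p = 0.022) and CDC42EP2, an effector of the GTPase CDC42 (log2 fold change -0.40, edgeR adjusted p = 0.037). At an unadjusted p under 0.05 these were again 0 and 2. The POLA2 call ended on leaving out any 1 library other than weakly adherent cells of 6 March, and that of CDC42EP2 on leaving out weakly adherent cells of 12 or 15 March or strongly adherent cells of 6 March. Their share called, 12.5%, stands beside 2.68% of all genes, and the list's median log2 fold change was -0.03. By date, 0 of the 16 rose and 2 fell (12.5%, against 9.29% of all genes), at a median of -0.07. They were DPF2, a chromatin remodelling subunit (-0.21, edgeR adjusted p = 0.040), and RELA, a subunit of NF-kB (-0.20, edgeR adjusted p = 0.041), neither called by DESeq2.

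Of 19 tested genes for paraspeckle proteins, edgeR called 0 by adhesion (1 higher and 0 lower at an unadjusted p under 0.05, none by DESeq2 or limma-voom), with a median log2 fold change of -0.04. By date 0 rose and 2 fell (10.5%, against 9.29% of all genes), at a median of -0.05: RBM14 (log2 fold change -0.33, edgeR adjusted p = 0.00029) and PSPC1 (-0.24, edgeR adjusted p = 0.015), both paraspeckle proteins that bind RNA, and DESeq2 called 0. SFPQ, a core paraspeckle protein that binds NEAT1, was at 368 ± 38.4 CPM in weakly adherent cells and 326 ± 0.722 CPM in strongly adherent cells (log2 fold change 0.17, edgeR adjusted p = 0.41). Of 16 nuclear speckle genes, 1 rose by adhesion and 0 fell (6.25%, against 2.68% of all genes), with 2 higher and 0 lower at an unadjusted p under 0.05, 2 higher by DESeq2 and 1 higher by limma-voom. It was SON, a scaffold of speckles, at 441 ± 20.1 CPM in weakly adherent cells against 335 ± 4.88 CPM in strongly adherent cells (log2 fold change 0.40, SE 0.07, edgeR adjusted p = 0.011). Another large speckle scaffold, SRRM2, had a log2 fold change of 0.28 (edgeR adjusted p = 0.063). The SON call ended with the length trend removed and without weakly adherent cells of 12 March or either strongly adherent library, and the list's median was 0.06. By date 2 speckle genes rose and 1 fell (18.8%, against 9.29% of all genes), at a median of -0.02, and DESeq2 called 0. The splicing factor genes SRSF6 and SRSF1 rose, by log2 fold changes of 0.28 (edgeR adjusted p = 0.0011) and 0.20 (edgeR adjusted p = 0.044), and RNPS1 fell by 0.20 on the log2 scale (edgeR adjusted p = 0.041).

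For GAS5 and SNHG1, the snoRNA host genes, the counting interval between the groups excluded 0 in 1 of 2 date pairs. Each pair is of single libraries, and the adhesion fit called neither RNA. GAS5 had 132, 122 and 115 CPM (2775, 2390 and 2523 reads) in weakly adherent cells of 6, 12 and 15 March, against 101 and 112 CPM (2139 and 2455 reads) in strongly adherent cells of 6 and 15 March. The groups did not overlap, though the libraries of 15 March were close. Mean levels were 123 ± 8.61 CPM (SD, n = 3) in weakly adherent cells and 106 ± 7.71 CPM (SD, n = 2) in strongly adherent cells (log2 fold change 0.21, SE 0.08, no call). The log2 ratio was 0.39 on 6 March (interval 0.31 to 0.47) and 0.04 on 15 March (interval -0.04 to 0.12).

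With the date as a block GAS5 passed the threshold at an unchanged log2 fold change of 0.21. Between the dates it had a log2 fold change of -0.03 with an SE of 0.07 (edgeR adjusted p = 0.84), the balance of -0.20 in weakly adherent cells (interval -0.28 to -0.12) and 0.15 in strongly adherent cells (interval 0.06 to 0.23). Reads of the antisense gene GAS5-AS1 numbered 2 to 4 a library. None of the 50-base windows of GAS5 transcripts occurs in another gene.

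SNHG1 had 198, 166 and 172 CPM (4164, 3247 and 3787 reads) in weakly adherent cells of 6, 12 and 15 March, against 166 and 176 CPM (3529 and 3872 reads) in strongly adherent cells of 6 and 15 March. The groups overlapped, and the weakly adherent library of 6 March stood above the other 4. The mean was 179 ± 16.9 CPM (SD, n = 3) in weakly adherent cells and 171 ± 6.98 CPM (SD, n = 2) in strongly adherent cells, with a log2 fold change of 0.06 (SE 0.08) that was -0.02 without that library. The log2 ratio was 0.25 on 6 March (interval 0.19 to 0.32) and -0.03 on 15 March (interval -0.10 to 0.03). Within weakly adherent cells, SNHG1 had a log2 ratio of 12 to 6 March of -0.25 (interval -0.32 to -0.19), as large as the 6 March ratio between the groups. Between the dates it had a log2 fold change of -0.06 with an SE of 0.07 (edgeR adjusted p = 0.64).

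Other snoRNA host genes were set beside this pair. Of 17 tested from a list of 21, edgeR called 0 (2 higher and 1 lower at an unadjusted p under 0.05), DESeq2 called 1 higher and limma-voom 0, and the median log2 fold change was 0.08, with 13 above 0. SNHG5 was the closest to the threshold, at 107 ± 11.6 CPM in weakly adherent cells and 83.0 ± 8.56 CPM in strongly adherent cells (log2 fold change 0.37, edgeR adjusted p = 0.086). SNHG18 went the other way, at 5.36 ± 0.204 CPM in weakly adherent cells and 7.76 ± 1.01 CPM in strongly adherent cells (log2 fold change -0.53, edgeR adjusted p = 0.095). Between the dates, 17 of these 17 genes had a negative log2 fold change with a median of -0.13, against a median of 0.0024 for all genes, but 1 passed the threshold, SNHG5 (log2 fold change -0.27, SE 0.07, edgeR adjusted p = 0.0041, not called by DESeq2). The rows of 18 snoRNAs hosted by SNHG1 and GAS5 summed to 727, 733 and 824 reads in weakly adherent cells and 701 and 850 reads in strongly adherent cells. Of the 17 tested, edgeR called 0 by adhesion (2 higher and 1 lower at an unadjusted p under 0.05), with a median of 0.05. DESeq2 and limma-voom also called 0 by adhesion. By date the snoRNA median was 0.11, with 11 above 0 and 6 below. Of these 17, edgeR called 1 by date (5.88%, against 9.29% of all genes), while DESeq2 called 0. This was SNORD47, which rose by 1.20 on the log2 scale (edgeR adjusted p = 3.3e-06). It went from 33 to 106 reads in weakly adherent cells and from 51 to 95 in strongly adherent cells.

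Of 16 tested genes of the nonsense-mediated decay pathway, which degrades the spliced host transcripts, 2 rose by adhesion and 0 fell, 12.5% against 2.68% of all genes. SMG1, the kinase that phosphorylates the helicase UPF1, was at 151 ± 9.21 CPM in weakly adherent cells and 71.8 ± 15.5 CPM in strongly adherent cells (log2 fold change 1.07, SE 0.12, edgeR adjusted p = 0.0025), a call kept in 15 of 15 alternatives. XRN1, the cytoplasmic 5' to 3' exonuclease, was at 24.5 ± 2.12 CPM in weakly adherent cells and 16.3 ± 2.64 CPM in strongly adherent cells (log2 fold change 0.59, SE 0.12, edgeR adjusted p = 0.024), a call that ended without weakly adherent cells of 12 or 15 March or strongly adherent cells of 6 March. The median of the list was 0.05.

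Most other long non-coding RNAs were too low to test and few were called. Of 1446 further genes with a symbol typical of the class, 353 were tested by adhesion, at a median level of 2.07 CPM against 28.4 CPM for all genes tested. Of these, 3 rose and 0 fell (0.85%, against 2.68% of all genes), while at an unadjusted p under 0.05 there were 21 higher and 8 lower, and DESeq2 called 3 higher and 0 lower. Their median log2 fold change was 0.03. LINC00641 was at 7.98 ± 0.659 CPM in weakly adherent cells and 4.18 ± 0.714 CPM in strongly adherent cells (log2 fold change 0.93, SE 0.17, edgeR adjusted p = 0.010). LINC01000 was at 31.1 ± 1.46 CPM in weakly adherent cells and 22.6 ± 0.397 CPM in strongly adherent cells (log2 fold change 0.46, SE 0.09, edgeR adjusted p = 0.022). LINC01004, at 1.85 ± 0.426 CPM in weakly adherent cells and 0.666 ± 0.343 CPM in strongly adherent cells, was called at the edge of the threshold (log2 fold change 1.47, SE 0.36, edgeR adjusted p = 0.049). LINC00641 was no longer called without strongly adherent cells of 6 March, nor LINC01000 without either strongly adherent library or weakly adherent cells of 15 March. LINC01004 lost its call in 7 of 15 alternatives, among them the removal of any 1 library other than strongly adherent cells of 15 March.

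With the class taken from the RefSeq gene type instead, a definition added after the data were seen, 4 of 461 rose and 0 fell by adhesion (0.868%), with a median of 0.05. The added gene was HCG27, at 1.38 ± 0.0895 CPM in weakly adherent cells and 0.460 ± 0.185 CPM in strongly adherent cells (log2 fold change 1.56, edgeR adjusted p = 0.034), a call that ended with DESeq2 and on leaving out any 1 of the 5 libraries. A list of 40 other long non-coding RNAs studied in cancer had 22 tested genes, of which edgeR called 0 (2 higher and 0 lower at an unadjusted p under 0.05, none by DESeq2 or limma-voom), with a median of 0.13. HOTAIR and MEG3 were among 7 of the list that had no read in any library. TUG1, a broadly expressed RNA, was at 198 ± 6.33 CPM in weakly adherent cells and 177 ± 11.0 CPM in strongly adherent cells (log2 fold change 0.16, edgeR adjusted p = 0.33). LINC00657, also known as NORAD, was at 299 ± 36.2 CPM in weakly adherent cells and 299 ± 33.3 CPM in strongly adherent cells.

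Between the dates, 7 of 349 tested genes of the symbol class rose and 2 fell (2.58%, against 9.29% of all genes), and DESeq2 called 0. LINC00341 had the smallest p among the rises, with 4.91 CPM on 15 March against 2.14 CPM on 6 March in weakly adherent cells, and 2.59 CPM on 15 March against 1.27 CPM on 6 March in strongly adherent cells (log2 fold change 1.12, SE 0.24, edgeR adjusted p = 0.0001). HNRNPU-AS1 was next by p, with a log2 fold change of 0.55 (edgeR adjusted p = 0.0015), and TMPO-AS1 fell with SNHG5, by 0.44 on the log2 scale (edgeR adjusted p = 0.026). MALAT1 and NEAT1 lie outside this class by symbol, so they are not among these counts.

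**Figure D4:**
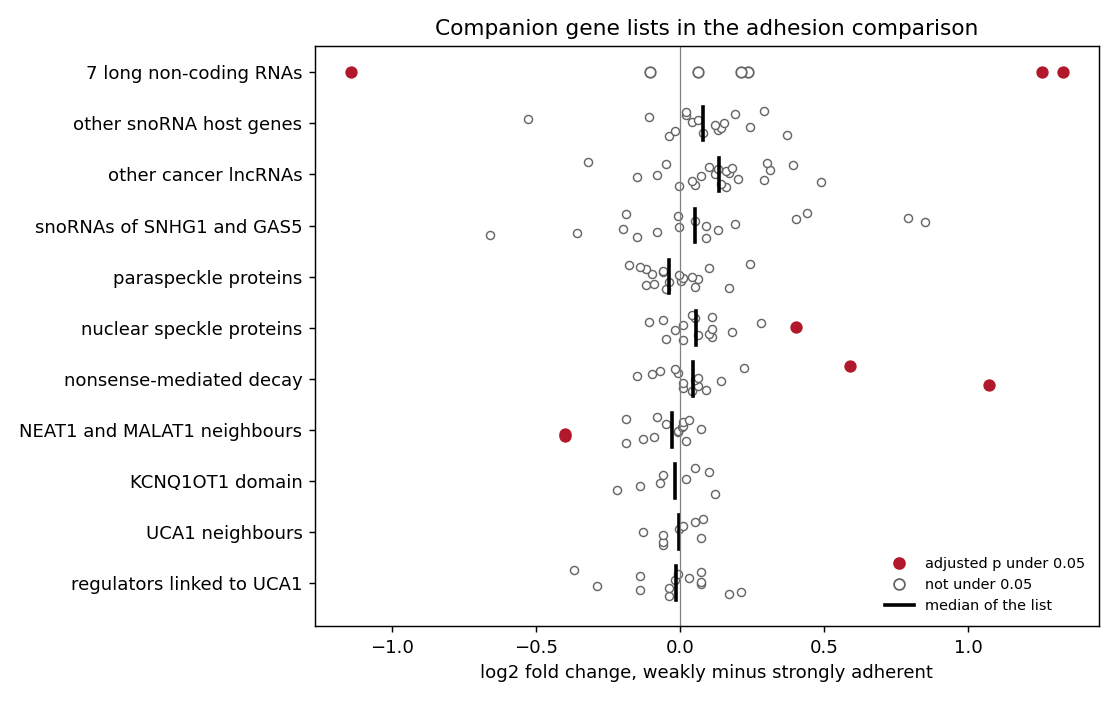
Log2 fold change for weakly minus strongly adherent cells of the 7 long non-coding RNAs (top row) and of the tested genes in 10 companion lists; red points have an edgeR adjusted p under 0.05, open points do not, and black bars are list medians. List medians lie between -0.04 and 0.13, and the red points outside the top row are SON, XRN1, SMG1, POLA2 and CDC42EP2, the last pair at the same place.

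The genes whose profile over the 5 libraries was most like that of each member were ranked by the root mean square difference of centred log2 CPM, among 11563 genes whose mean reached 2 CPM. For UCA1 they were SERPINB2, a serine protease inhibitor (0.103), CLDN1, a tight junction protein (0.108), and ANKRD1, a muscle ankyrin repeat protein (0.115). ANKRD1 had 148, 142 and 152 CPM in weakly adherent cells, against 301 and 271 CPM in strongly adherent cells. For LINC00342 they were KIAA1109 (0.134), the histone methyltransferase gene KMT2C (0.139) and BIRC6 (0.144), and for KCNQ1OT1 the pseudogene PRKXP1 (0.189), KMT2C (0.208) and AHNAK (0.227). KMT2C, common to both, had 66.6, 50.3 and 72.3 CPM in weakly adherent cells, against 28.8 and 34.6 CPM in strongly adherent cells, with the same low library of 12 March. MALAT1 lay nearest to YPEL3 (0.0265) and CFP (0.0292), NEAT1 to PDE7B (0.0201), GAS5 to DIP2B (0.0220) and SNHG1 to CXorf40A (0.0158). These are likenesses over 5 libraries in which many genes share a shape, and they carry no test.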

How the data were processed

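Total RNA of 5 cell line samples was sequenced as 50-base single-end reads from TruSeq stranded libraries, per the labels' protocols. Per the submitters' processing notes, the tools included STAR, HTSeq, DESeq2, cutadapt and FastQC, on hg19. Not given in the sources used here are the annotation, any poly(A) selection and how the counting treated strand; antisense or overlapping genes may share reads. The authors deposited raw counts per symbol and log2 normalized counts, which equal log2(count / size factor + 1) as checked on the file. The 5 summary rows were left out of library sizes and tests.

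The test on counts was that of edgeR 4.0.16 under R 4.3.3 (TMM, filterByExpr, robust quasi-likelihood F test, Benjamini-Hochberg adjusted p under 0.05 over all genes tested). The adhesion fit used all 5 libraries (3 residual degrees of freedom, biological coefficient of variation 7.91%); the date fit used the 4 libraries of 15 and 6 March with adhesion as covariate. Intervals between single libraries are exact Clopper-Pearson intervals at 95%. Replicates differed by more than sampling noise, with a chi-square of 7.19 to 12.0 per degree of freedom. Shared dates were taken as pairs, since the titles give them, and the block carries no weight for 12 March. Deviations from the group means correlated at 0.34 (6 March) and 0.20 (15 March) between libraries of a shared date. Those of weakly adherent cells of 12 March correlated at -0.16 and 0.16 with those of strongly adherent cells of 6 and 15 March. The deviations of strongly adherent cells of 6 and 15 March mirror each other by construction. Thus -0.16 and 0.16 are the same value with opposite signs, and these correlations cannot decide whether shared dates pair the libraries. Alternatives were DESeq2 1.42.0, DESeq2 size factors, limma-voom (limma 3.58.1), other filters, the deposited log2 values (also with pseudocount 5), transcript length removed by a spline, the date block, and each library left out. Lengths and sequences come from GENCODE release 29 on GRCh38, matched by symbol (93.3% of genes tested), and gene order from RefSeq, on another build than the authors used; no coordinates were joined to the deposited data. The fits were also run on simulated counts with planted changes. These were drawn with the dispersions of the adhesion fit, without a length trend or pairing by date. That run therefore cannot show how the fits behave under either.

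The members and gene lists were chosen with earlier results of these data known. The text names the 7 members; up to 3 genes per list with the smallest p by adhesion; class members called with a mean of at least 1 CPM (up to 5 each way); by date, the 2 of smallest p each way; and the 3 genes most like each member. Other genes named, among them those called by date in the lists, were chosen after their values were seen. A gene and a sequence are not reported here.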

Additional observations from a re-analysis of the deposited data

Results flagged for a closer look

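Several members moved in opposite directions in the contexts compared, each of which is a single pair of libraries; none of these differences was tested. By adhesion, NEAT1 had a log2 ratio of weakly to strongly adherent cells of -0.16 on 6 March and 0.03 on 15 March, and SNHG1 of 0.25 on 6 March and -0.03 on 15 March; in both, the 15 March interval includes 0. By date, GAS5 had a log2 ratio of 15 to 6 March of -0.20 in weakly adherent cells and 0.15 in strongly adherent cells, and SNHG1 of -0.20 in weakly adherent cells and 0.08 in strongly adherent cells, with all 4 intervals excluding 0. UCA1 (0.15 in weakly adherent cells, -0.11 in strongly adherent cells), KCNQ1OT1 (0.23 and -0.13 in the same order) and LINC00342 (0.04 and -0.05) also had opposite signs by date, with intervals that include 0 in both groups. No group has the 4 libraries that a check for a single library far from the others needs.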

How the results depend on the processing

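UCA1, which was chosen for its adhesion difference, had log2 fold changes of -1.19 to -1.09 over 15 alternatives, given as a description. By adhesion, 357 genes were called (235 higher, 122 lower): 536 without a filter on low counts, 1527 with the replicate block of shared dates (825 higher, 702 lower), 1435 with block and length trend removed (666 higher, 769 lower), and 116 to 341 with 1 library left out (116 without strongly adherent cells of 6 March, 194 without weakly adherent cells of 12 March, 214 without strongly adherent cells of 15 March). Removing the length trend alone gave 183 higher and 175 lower; leaving out the 15 March library gave 236 higher and 67 lower where it was the weakly adherent one, and 164 higher and 50 lower where it was the strongly adherent one. Members called, 3, became 5 with the replicate block (MALAT1 and GAS5 added) and ran from 1 to 3 with 1 library left out, 1 without either strongly adherent library. The 3 called genes of the symbol class became 7 without a filter, 5 with the length trend removed, 17 with the block, 20 with both, and 1 to 3 with 1 library left out.

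By date, 1231 genes were called (893 higher, 338 lower): 203 with DESeq2, and 0 without adhesion as covariate, where 1257 had an unadjusted p under 0.05. Removing the length trend gave 652 higher and 661 lower. The 2 members called became 1 with the length trend removed and 0 without the covariate. Signs turned for small values: SNHG1 by adhesion (-0.02 to 0.11 with 1 library left out, negative without weakly adherent cells of 6 March), and by date UCA1 with DESeq2 (0.01), KCNQ1OT1 with the length trend removed (-0.10), and LINC00342 without a filter (-0.0041) and with the length trend removed (-0.01). Causes were not tested. DESeq2 gave no adjusted p by date for KCNQ1OT1 and LINC00342. Leaving out a library of the date fit leaves no residual degree of freedom and was not run. Counts of 26 reads limit LINC00342, and 3 against 2 libraries limit every adhesion value.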
